A study of Mus musculus with 4 samples.

Results

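Of 40 genes for focal adhesions and the actin cytoskeleton, 37 could be tested in C22 cells after 3 h of norepinephrine (NE), and 1 was called, against 1.57% of all tested genes. The called gene was Parvb, a parvin gene, at 29.9% above vehicle, and its call was lost in DESeq2, with total counts as scaling and without any of 3 of the 4 libraries. The 40 genes were chosen by symbol from a named list, among the 22063 genes of a table of raw read counts, and all 40 were found. C22 is an immortalized, wild-type mouse cell line that the labels call a bronchial epithelial Club cell. Cells of 2 libraries had received NE at 10 µM for 3 h, and those of the 2 others vehicle over an equal time. Both groups grew in medium with a low share of fetal bovine serum and with growth supplements. The labels do not say whether the replicates were separate cultures, so p-values measure only the spread between these libraries, which may be technical.

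Focal adhesions are the sites where integrin receptors in the cell membrane are tied to actin filaments. Talin and kindlin bind the integrin tails, a complex of ILK, PINCH and parvin joins them to actin, and kinases such as FAK and Src signal from the same sites. Alpha-actinin and filamin crosslink the filaments, tropomyosin wraps them and myosin II contracts them. Smooth muscle forms of actin, calponin and transgelin mark contractile cells.

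Total counts were 15657173 and 18491334 in the NE libraries and 14820258 and 14783176 in the vehicle libraries. Levels are given in CPM, counts relative to the library's total after TMM scaling, which evens out differences in composition. Defining Club cell transcripts were absent or nearly so: Scgb3a1, Scgb3a2, Cyp2f2 and Bpifa1 had 0 counts, which allows up to 0.0471 CPM over the 4 libraries, Scgb1a1 had 2 counts in all and Cldn10 had 4. Among epithelial genes the keratins Krt8, Krt18 and Krt19 were present, Cdh1 had 18 counts in all, and Epcam and Cldn4 had 0. Of 8 fibroblast markers 7 could be tested, Lum had 0 counts, and their summed level was 4509 and 4576 CPM in NE, against 5392 and 4587 CPM in vehicle. Of 6 smooth muscle markers outside the 40 genes, Myh11, Des, Synpo2, Actg2 and Lmod1 had between 0 and 44 counts in all, and Smtn alone could be tested. Of the 11 tested markers edgeR, DESeq2 and limma voom each called 0, and for 3 the edgeR p before adjustment was under 0.05, against 17.3% of all tested genes. These 3 were Krt19, Col1a1 and Col3a1, with log2 fold changes of -0.35, -0.18 and -0.19.

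Together the 40 genes took 1.57% and 1.56% of all counts in the NE libraries and 1.67% and 1.52% in the vehicle libraries. Among them 37 had enough counts to be tested, at mean levels between 1.17 and 2400 CPM, and 35 of these reached 10 CPM. Summed over the 40 genes the level was 15714 CPM in both NE libraries, against 16679 and 15067 CPM in the vehicle libraries. The NE sums thus lie inside the spread of the vehicle sums. In bulk RNA, a change in RNA per cell and a change in the number of cells of a kind cannot be told apart.

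**Figure D1:**
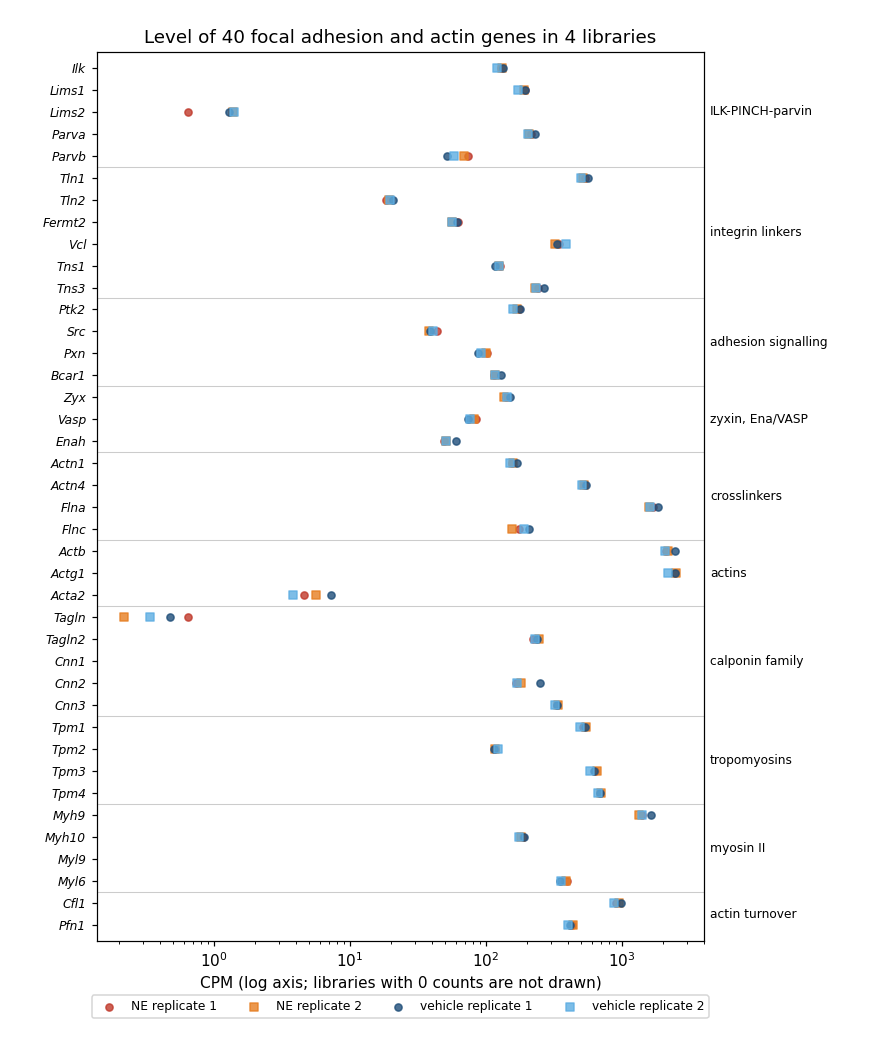
Level of each of the 40 genes in CPM on a log axis, 1 point per library (NE in red and orange, vehicle in dark and light blue), grouped by role. The levels run from 0 counts for Cnn1 and Myl9 to about 2400 CPM for Actg1, and for most genes the 4 points lie almost on top of each other.

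NE was compared with vehicle by edgeR's quasi-likelihood test over 11419 genes, with p-values adjusted over all of them and a gene called at an adjusted p under 0.05. Of the 37 tested genes 1 was called, against 1.57% of all tested genes. By direction, 1 was higher, against 0.342% of all tested genes, and 0 were lower, against 1.23%. DESeq2 called 0 of the 35 to which it gave an adjusted p, and limma voom called 1, again Parvb. An unadjusted p under 0.05 was found for 6 of the 37 (16.2%), against 17.3% of all tested genes. The CPM values of the groups did not overlap for 13 of the 37 (35.1%), 9 higher and 4 lower in NE, against 49.2% of all tested genes. The median log2 fold change was -0.0011 over the 37 genes and -0.00011 over all tested genes, with 17 values above 0 and 20 below.

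Most of these genes were measured closely. The standard error (SE) of the log2 fold change had a median of 0.073 and was under 0.1 for 33 of 37. For 32 of the 37 the 95% interval lay wholly inside a 1.3-fold change in either direction. It lay inside 1.5-fold for 35, all but Lims2 and Acta2, the tested genes with the fewest counts.

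**Figure D2:**
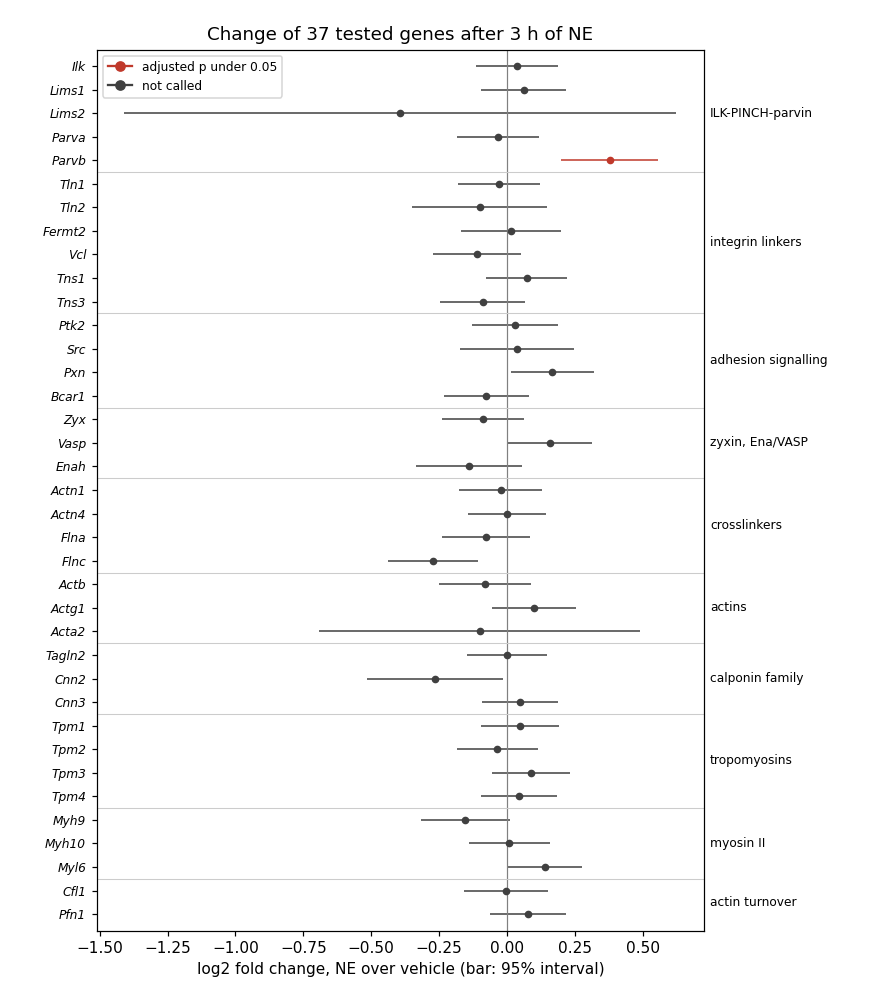
Log2 fold change of NE over vehicle with its 95% interval for the 37 tested genes, grouped by role. Parvb, at 0.38, is the one called gene, Flnc and Cnn2 lie near -0.27, and the wide bars belong to Lims2 and Acta2.

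In the ILK-PINCH-parvin complex the gene that rose was Parvb, the less abundant of Parva and Parvb per transcript length. Parvb encodes beta-parvin, an actin-binding partner of ILK. It had 1146 and 1267 counts in the NE libraries and 772 and 862 in the vehicle libraries, that is 73.4 and 69.2 CPM in NE, against 51.9 and 57.9 CPM in vehicle. Both NE libraries lay above both vehicle libraries. The log2 fold change was 0.38 ± 0.08 (SE, 95% interval 0.20 to 0.56, edgeR adjusted p = 0.0401). None of Parvb's transcript sequence was shared with other genes in stretches of 50 bases, and none of its exons overlapped another gene.

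The Parvb call was close to the threshold. In DESeq2 its log2 fold change was 0.38 with an adjusted p = 0.0713, and with total counts as scaling it was 0.36 with an edgeR adjusted p = 0.0535. Left out in turn, NE replicate 1, NE replicate 2 and vehicle replicate 1 each ended the call, with log2 fold changes of 0.34, 0.42 and 0.30 and adjusted p-values of 0.2005, 0.346 and 0.0844. Without vehicle replicate 2 it was 0.46 (adjusted p = 8.45e-04). The direction was the same in each of these settings.

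The other genes of the complex were not called. Parva, which encodes the paralog alpha-parvin, had 215.2 and 208.3 CPM in NE, against 228.7 and 204.6 CPM in vehicle (log2 fold change -0.03 ± 0.07, edgeR adjusted p = 0.859). The 2 NE values lie between the 2 vehicle values. Per transcript length, Parvb made up 28.7% and 28.1% of the summed parvin level in NE and 21.08% and 24.97% in vehicle. Parvg, the third parvin gene, had 8 counts over the 4 libraries.

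Ilk, the kinase-like scaffold of the complex, had 130.1 ± 1.26 CPM in NE and 126.8 ± 7.81 CPM in vehicle (SD, n = 2 each). Lims1, which encodes PINCH1, had 191.0 ± 2.52 CPM in NE and 183.1 ± 16.0 CPM in vehicle. Their log2 fold changes were 0.04 and 0.06, each smaller than its SE. Lims2, which encodes PINCH2, was near the limit of testing, with 10 and 25 counts in NE and 19 and 21 in vehicle. Its log2 fold change of -0.39 has a 95% interval of -1.41 to 0.62, and leaving out NE replicate 1 turned it to 0.03.

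Genes that link integrins to actin gave 0 calls among 6 in edgeR, in DESeq2 and in limma voom. For 0 of the 6 was the edgeR p before adjustment under 0.05. Tln1, the main talin gene, had 522.2 ± 10.8 CPM in NE and 533.5 ± 44.97 CPM in vehicle (SD, n = 2 each). Tln2 was far lower, at 2.33% and 2.53% of the summed talin level per length in NE and 2.46% and 2.66% in vehicle. Vcl encodes vinculin, which binds talin and actin when the link is under tension. It had 342.8 and 323.6 CPM in NE, against 332.0 and 387.6 CPM in vehicle (log2 fold change -0.11 ± 0.08), and the groups overlap. The kindlin gene Fermt2 and the tensin genes Tns1 and Tns3 had log2 fold changes of 0.01, 0.07 and -0.09.

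Of the genes for adhesion signalling, 0 of 4 were called by any of the 3 tools. Pxn encodes paxillin, a docking protein for FAK and vinculin. It had 101.2 and 99.2 CPM in NE, against 87.2 and 91.3 CPM in vehicle (log2 fold change 0.17 ± 0.07, 95% interval 0.02 to 0.32, unadjusted p = 0.0327, edgeR adjusted p = 0.240). Both NE libraries were above both vehicle libraries, by about 12.3% in the fit. The FAK gene Ptk2, the kinase gene Src and the Cas docking protein gene Bcar1 had log2 fold changes of 0.03, 0.04 and -0.08, with groups that overlap.

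Zyxin and the Ena/VASP proteins gather where actin filaments are strained or grow. Vasp had 84.6 and 81.7 CPM in NE, against 73.3 and 75.6 CPM in vehicle (log2 fold change 0.16 ± 0.07, unadjusted p = 0.0455, edgeR adjusted p = 0.275). Its paralog Enah had 49.28 and 51.08 CPM in NE, against 59.62 and 51.09 CPM in vehicle (log2 fold change -0.14 ± 0.09, adjusted p = 0.461). Zyx lay at 141.0 and 134.6 CPM in NE and 151.2 and 141.7 CPM in vehicle (-0.09 ± 0.07). For each of these 3 genes the groups did not overlap, Vasp higher and the others lower in NE, against 49.2% of all tested genes in either direction. The Enah groups almost touched, at 51.082 CPM in NE replicate 2 and 51.085 CPM in vehicle replicate 2. None of the 3 genes was called by the 3 tools.

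Filament crosslinkers included Flnc, the uncalled member with the smallest p. Flnc encodes filamin C, the filamin best known from muscle. It had 175.8 and 153.9 CPM in NE, against 208.3 and 189.4 CPM in vehicle. Both NE libraries lay below both vehicle libraries. The log2 fold change was -0.27 ± 0.08 (95% interval -0.44 to -0.11, unadjusted p = 0.00310, edgeR adjusted p = 0.0869). It passed without vehicle replicate 2 (log2 fold change -0.34, adjusted p = 0.00224), and in no other setting that leaves out 1 library.

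Flna, which encodes the widespread filamin A, had 1685 and 1574 CPM in NE, against 1832 and 1608 CPM in vehicle (log2 fold change -0.08 ± 0.08). As a share of Flna and Flnc together per length, Flnc made up 8.89% and 8.38% in NE and 9.62% and 9.92% in vehicle. The alpha-actinin genes Actn1 and Actn4 had 156.4 ± 2.50 and 524.5 ± 4.46 CPM in NE and 159.1 ± 12.4 and 524.5 ± 28.2 CPM in vehicle (SD, n = 2 each). Their log2 fold changes were -0.02 and -0.00011.

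The actins of non-muscle cells had the highest levels per transcript length among the 40 genes. Actb, which encodes beta-actin and often serves as a reference gene, had 2089 and 2175 CPM in NE, against 2438 and 2072 CPM in vehicle (log2 fold change -0.08 ± 0.08, edgeR adjusted p = 0.644). Actg1, which encodes gamma-actin, had 2452 and 2512 CPM in NE, against 2443 and 2193 CPM in vehicle (0.10 ± 0.07, adjusted p = 0.517). Vehicle replicate 1 was the highest library for Actb, and the groups overlap there. For Actg1 they did not overlap, though NE replicate 1 and vehicle replicate 1 lay close together.

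Per length Actg1 made up 53.5% and 53.1% of the summed level of Actb, Actg1 and Acta2 in NE and 49.6% and 51.0% in vehicle. Of the stretches of 50 bases in the longest Actg1 transcript 56.7% also occur in other annotated genes, mostly processed copies, and for Actb it was 14.2%. How reads of such stretches were counted is not given in the sources used here, so these values are uncertain. Similar sharing of at least 5% was found for Tpm3 (62.4%), Myl6 (18.5%), Cnn3 (16.4%), Ilk (14.1%), Tpm4 (12.1%) and Cfl1 (9.11%). Exons of 12 of the 40 genes also overlap those of another gene, in most cases on the opposite strand, and the strand setting of the counting is not given in the sources used here.

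Of the smooth muscle members Acta2 was low but could be tested, and the others were absent or nearly so. Acta2, which encodes smooth muscle actin, had 72 and 103 counts in NE and 107 and 57 in vehicle (4.61 and 5.63 CPM, against 7.19 and 3.83 CPM). Its log2 fold change of -0.10 ± 0.28 turned to 0.42 without vehicle replicate 1 and to 0.03 without NE replicate 1. Tagln had 10 and 4 counts in NE and 7 and 5 in vehicle and was not tested. Cnn1, the smooth muscle calponin gene, and Myl9, the gene of a myosin regulatory light chain, had 0 counts in all 4 libraries.

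Paralogs that are not restricted to smooth muscle were present. Tagln2 had 232.7 ± 14.6 CPM in NE and 233.0 ± 5.52 CPM in vehicle (SD, n = 2 each), with a log2 fold change of -0.0011. Cnn3 had 336.3 ± 5.20 CPM in NE and 325.4 ± 6.94 CPM in vehicle (0.05 ± 0.07). Cnn2 had 166.3 and 182.0 CPM in NE, against 249.0 and 170.2 CPM in vehicle. Vehicle replicate 1 alone stood high and the groups overlap.

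The log2 fold change of Cnn2 was -0.27 ± 0.12 (unadjusted p = 0.0382, edgeR adjusted p = 0.256). Without vehicle replicate 1 it was 0.03, and without vehicle replicate 2 it was -0.51 (adjusted p = 5.60e-08). Its value thus rested on the choice of vehicle library.

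All 4 tropomyosin genes were well expressed, and edgeR, DESeq2 and limma voom called 0 of them. The edgeR p before adjustment was under 0.05 for 0 of the 4. Tropomyosins wrap actin filaments and govern which myosins and severing proteins reach them. Tpm4 and Tpm3 led per length, with 38.7% and 38.3% of the summed tropomyosin level in NE, against 38.7% and 38.9% in vehicle, for Tpm4. Tpm3 took 33.6% and 33.9% in NE and 33.2% and 32.7% in vehicle, Tpm1 21.3% and 21.7% in NE and 21.8% and 21.3% in vehicle, and Tpm2 between 6.16% and 7.04% in all libraries. Log2 fold changes ran from -0.04 for Tpm2 to 0.09 for Tpm3.

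In non-muscle myosin II, Myh9 encodes the main heavy chain. It had 1414 and 1330 CPM in NE, against 1640 and 1413 CPM in vehicle (log2 fold change -0.15 ± 0.08, edgeR adjusted p = 0.320). The first NE library and the second vehicle library had almost the same value. It passed without vehicle replicate 2, at -0.26 (adjusted p = 0.0118). Myh10, the other heavy chain gene of the list, had 184.0 ± 4.23 CPM in NE and 183.0 ± 10.5 CPM in vehicle (SD, n = 2 each).

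Myl6, the gene of the essential light chain, had 393.1 and 384.5 CPM in NE, against 352.5 and 354.0 CPM in vehicle (log2 fold change 0.14 ± 0.06, unadjusted p = 0.0485, edgeR adjusted p = 0.284). Both NE libraries lay above both vehicle libraries. Of the genes of actin turnover, Cfl1, whose product cofilin severs filaments, had 920.2 ± 33.7 CPM in NE and 922.8 ± 75.2 CPM in vehicle. Pfn1, whose product profilin feeds actin monomers to growing ends, had 431.1 ± 8.55 CPM in NE and 408.9 ± 10.3 CPM in vehicle (SD, n = 2 each). Their log2 fold changes were -0.0040 and 0.08, and neither was called.

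**Figure D3:**
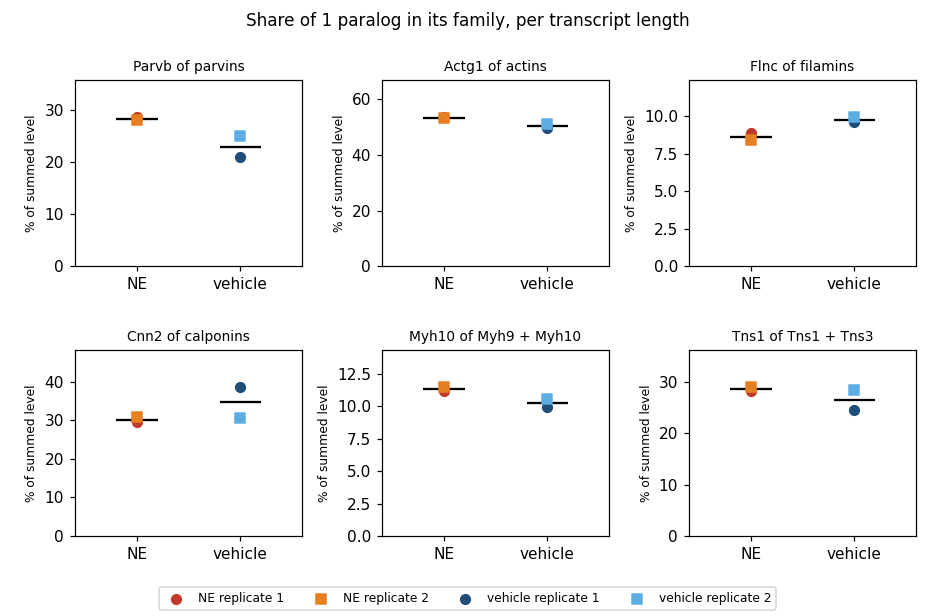
Share of 1 paralog in the summed level of its family, per transcript length, in each library (points) with the group mean (bars), for 6 families. Parvb makes up 28.7% and 28.1% of the parvins in NE against 21.08% and 24.97% in vehicle, and the vehicle points of Cnn2 lie far apart.

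The vehicle libraries differed from each other across these genes more than the NE libraries did. Vehicle replicate 1 was above vehicle replicate 2 for 28 of the 37 tested genes (75.7%), with a median difference of 0.12 on the log2 scale. Over all tested genes it was above for 49.7%, with a median difference of -0.0017. Between NE replicates 1 and 2 the count was 19 of 37 (51.4%), with a median of 0.0090, against 5710 of all 11419.

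Acta2 (0.89), Cnn2 (0.55), Actb (0.24), Enah (0.22) and Myh9 (0.22) had the highest values of vehicle replicate 1 minus vehicle replicate 2 on the log2 scale. At the other end, Vcl (-0.22), Parvb (-0.16) and Lims2 (-0.13) were higher in vehicle replicate 2. The median log2 fold change of the 37 genes was 0.06 without vehicle replicate 1 and -0.05 without vehicle replicate 2. Flnc, Cnn2 and Myh9 passed the test without vehicle replicate 2 but in none of the other 3 settings that leave out a library. The summed fibroblast markers given above were also highest in vehicle replicate 1. Vim made up most of that sum, at 3142 of 5392 CPM, and Vim, Col1a1, Col1a2, Col3a1 and Pdgfrb were each highest there. Pdgfra (3.90 CPM) and Dcn (7.39 CPM) were instead lowest in that library, and Lum had 0 counts. The part of these markers in the values above was not tested.

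**Figure D4:**
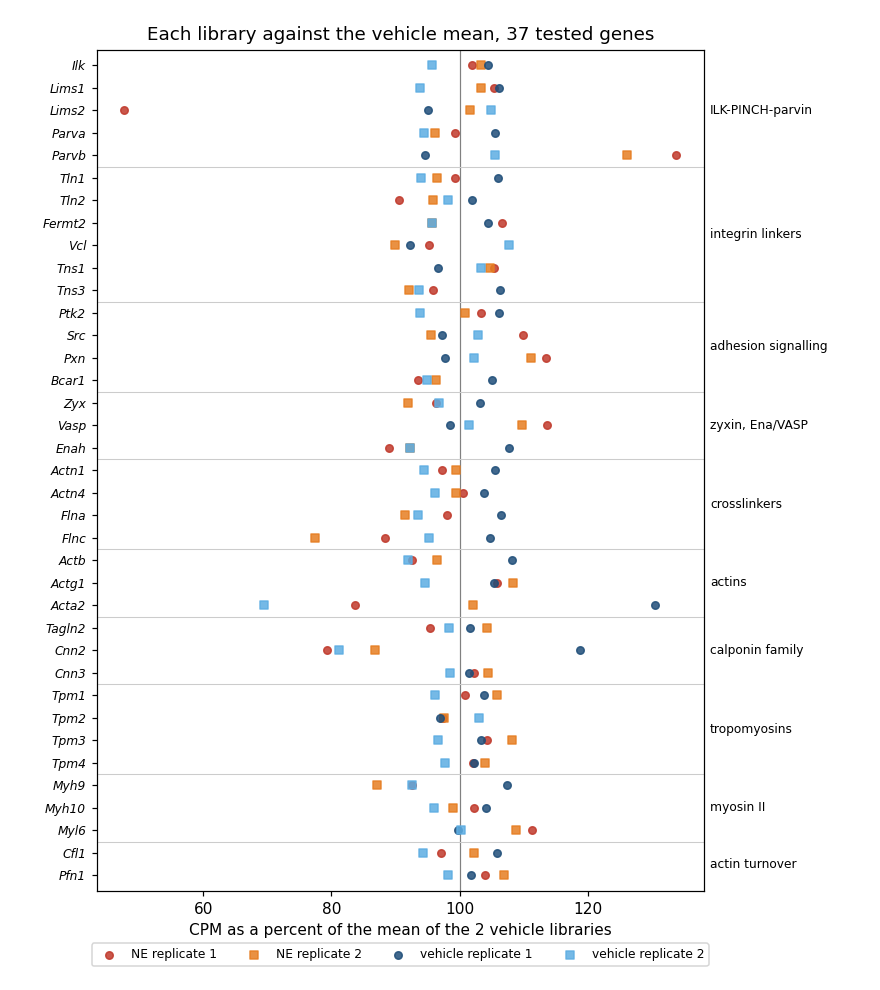
CPM of each library as a percent of the mean of the vehicle libraries for the 37 tested genes (NE in red and orange, vehicle in dark and light blue). Vehicle replicate 1 lies right of vehicle replicate 2 for 28 of the 37, and for Parvb both NE libraries lie far to the right of both vehicle libraries.

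Fold changes of all tested genes declined with transcript length (Spearman's rho -0.27), with a median log2 value of 0.11 in the decile of shortest transcripts and -0.09 in that of the longest. The rho was -0.31 over the 37 genes, which are not independent and share the same 4 libraries. Short members lay on both sides of 0, with Pfn1 (861 nt), Myl6 (1668 nt) and Actg1 (1952 nt) above it and Tagln2 (1586 nt), Lims2 (1870 nt) and Actb (1920 nt) below it. Of the long ones Flna (8456 nt), Flnc (9038 nt), Enah (11229 nt) and Tln2 (12132 nt) were below 0. So were Myh9 (7433 nt), Tns3 (7483 nt) and Tln1 (8393 nt). Myh10 (7791 nt) and Tns1 (9966 nt) were above 0, at 0.0078 and 0.07.

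With the length trend of each library removed, Parvb was at 0.42 (edgeR adjusted p = 0.0497) and stayed the one called gene of the list. Flna, Tln1 and Tln2 were then at 0.03, 0.08 and 0.05, and Pfn1 at -0.03, where their signs are turned. This setting also moved the median of all tested genes, from -0.00011 to 0.034. Against that median Flna (0.031) stayed below, while Tln1 and Tln2 turned to above it and Pfn1 to below it. Flnc was at -0.16 (edgeR adjusted p = 0.263), against -0.27 before, and Myh9 at -0.06, against -0.15. The median over the 37 genes was 0.03 in that setting, as it was over all tested genes. How far length enters the value of a single gene was not tested beyond this.

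**Figure D5:**
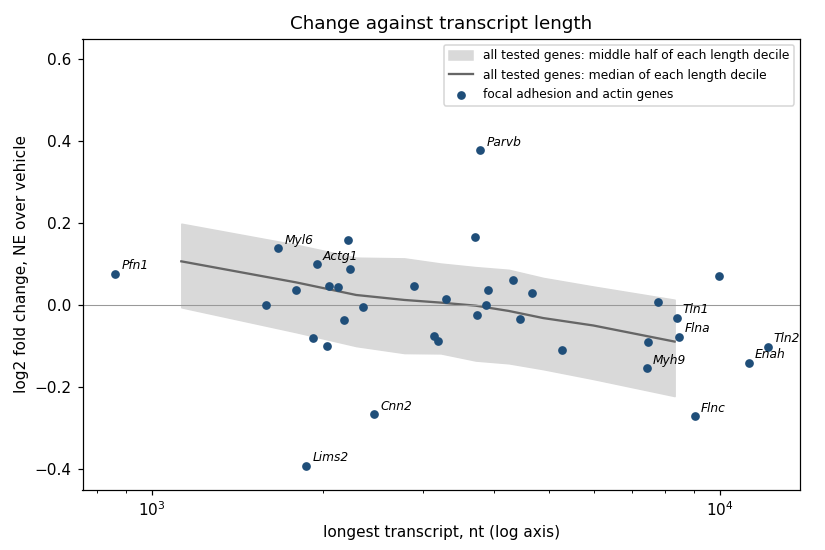
Log2 fold change of NE over vehicle against the length of the longest annotated transcript in nt (log axis), with 1 point per tested gene of the list. The grey line and band give the median and the middle 50% of all tested genes in each length decile. Among the genes above the band are Parvb, Pxn and Vasp, at 0.38, 0.17 and 0.16. Among those below it are Cnn2 and Lims2, at -0.27 and -0.39.

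Serum response factor (SRF), with the cofactors MRTF-A and MRTF-B, drives many cytoskeletal genes through the CArG box, a run of A and T bases between CC and GG, and MRTF itself is held in check by free actin. Promoter sequences (250 bases before to 50 after a gene's start, from RefSeq, build GRCm38.p6) were found for 33 of the 40 genes. None was found for Lims2, Parva, Tln2, Ptk2, Pxn, Actb and Tagln, so these genes were not scanned. A CArG box was present for 6 of the 33 (18.2%), against 1.81% of 27025 genes in the same table. Among the genes of adhesion and actin regulation described below it was 5 of 84 (5.95%). Only exact matches within these bases were counted, so a gene without a match may still have a variant or more distant box. The motif reads the same on both strands, so 1 scan covers both. The stretches around the 6 boxes are given here 5′ to 3′ on the gene's strand with the box in capitals, since they show what these members share beyond the list.
Actg1, chr11:120348551-120348610, minus strand: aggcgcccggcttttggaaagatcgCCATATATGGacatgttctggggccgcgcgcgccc
Cnn2, chr10:79988519-79988578, plus strand: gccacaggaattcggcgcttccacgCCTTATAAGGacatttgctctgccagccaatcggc
Fermt2, chr14:45530235-45530294, minus strand: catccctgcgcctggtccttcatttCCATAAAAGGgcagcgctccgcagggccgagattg
Myl6, chr10:128493025-128493084, minus strand: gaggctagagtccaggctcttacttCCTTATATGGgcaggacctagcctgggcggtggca
Myl9, chr2:156775278-156775337, plus strand: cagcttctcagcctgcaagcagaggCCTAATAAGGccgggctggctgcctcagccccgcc
Vcl, chr14:20929148-20929205, plus strand: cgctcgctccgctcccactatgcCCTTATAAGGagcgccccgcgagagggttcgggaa

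The boxes of Myl6 and Cnn2 begin 50 and 56 bases before the gene's start, that of Actg1 90, of Myl9 161, of Fermt2 204 and of Vcl 227. A match of letters is a description and not a shown binding site. Of these 6 genes 5 could be tested, since Myl9 had 0 counts, and none of the 3 tools called any of them. Their log2 fold changes were 0.10 for Actg1, 0.14 for Myl6, 0.01 for Fermt2, -0.11 for Vcl and -0.27 for Cnn2, with a median of 0.01. Myl6 and Cnn2 had an unadjusted p under 0.05 in edgeR, and they lay on opposite sides of 0. None was called, so whether the genes with a box have a direction cannot be read from these values. Without vehicle replicate 1 Cnn2 was at 0.03, and the part of SRF was not tested.

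The genes of the factors themselves were present in both groups, with log2 fold changes below 0. Srf had 43.0 and 45.2 CPM in NE, against 48.5 and 41.8 CPM in vehicle (log2 fold change -0.03 ± 0.10). Mrtfa had 67.7 and 66.6 CPM in NE, against 71.8 and 68.7 CPM in vehicle (-0.07 ± 0.08). Mrtfb had 42.9 and 38.1 CPM in NE, against 43.4 and 45.04 CPM in vehicle (-0.13 ± 0.10). For Mrtfa and Mrtfb both NE libraries lay below both vehicle libraries, and for Srf the groups overlap. None of the 3 was called by the 3 tools or had an unadjusted p under 0.05 in edgeR.

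A further list of 104 genes of adhesion and actin regulation gave 99 tested genes, of which 0 were called by any of the 3 tools. In edgeR 18 of the 99 (18.2%) had an unadjusted p under 0.05, against 17.3% of all tested genes. Groups did not overlap for 54 (54.5%), 36 higher and 18 lower in NE, against 49.2% of all tested genes. The median log2 fold change was 0.0098. Without vehicle replicate 2, 5 were called higher and 4 lower.

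Among regulators of contraction, Ppp1cb, a catalytic subunit of the phosphatase that acts on myosin, had the smallest p of the list. It had 255.6 and 255.2 CPM in NE, against 211.4 and 219.5 CPM in vehicle (log2 fold change 0.25 ± 0.07, edgeR adjusted p = 0.0698). Mylk, which encodes the kinase that acts on the myosin light chain, had 30.2 and 31.0 CPM in NE, against 34.8 and 38.8 CPM in vehicle (-0.26 ± 0.10, adjusted p = 0.181). Neither pair of groups overlaps. Rhoa, the gene of a small GTPase that promotes contraction, stood at 0.14 ± 0.07 (adjusted p = 0.305). Of the 14 tested genes of this list 10 were above 0, against 5704 of all 11419 tested genes.

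Of the 24 tested adhesion adaptors 10 were above 0 and 14 below, against 5704 above 0 among all 11419 tested genes. An unadjusted p under 0.05 was found for 5 of the 24, against 17.3% of all tested genes. Sorbs3, which encodes the vinculin partner vinexin, had 74.9 and 71.5 CPM in NE, against 90.6 and 85.9 CPM in vehicle (log2 fold change -0.27 ± 0.07, edgeR adjusted p = 0.0739). Dock1, an activator gene of the GTPase Rac, stood at 0.24 ± 0.08 (adjusted p = 0.130), Tns2 at -0.20 ± 0.07 (adjusted p = 0.162) and Lpp, a relative of zyxin, at -0.26 ± 0.10 (adjusted p = 0.168). Of 12 tested genes of bundling and stress fibres 8 were below 0. Svil, the supervillin gene, stood at -0.26 ± 0.08 (adjusted p = 0.104), Cald1, the caldesmon gene, at 0.24 ± 0.08 (adjusted p = 0.151) and Pls3, which encodes plastin 3, at 0.17 ± 0.07 (adjusted p = 0.204).

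Genes of actin nucleation lay mostly above 0, at 18 of 22, with a median log2 fold change of 0.13. Of the 22 genes 5 had an unadjusted p under 0.05, against 17.3% of all tested genes, and 0 were called. In 14 of the 22 both NE libraries were above both vehicle libraries and in 0 both were below, against 24.6% of all tested genes in each direction. Arpc5, a subunit gene of the Arp2/3 complex, which starts filament branches, had 157.2 and 158.2 CPM in NE, against 138.0 and 133.4 CPM in vehicle (0.22 ± 0.07, edgeR adjusted p = 0.113). Nckap1 and Abi1, of the WAVE complex that activates Arp2/3, stood at 0.17 ± 0.07 (adjusted p = 0.181) and 0.20 ± 0.08 (adjusted p = 0.192). The formin gene Fmnl3 stood at 0.25 ± 0.10 (adjusted p = 0.207).

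The 9 Arp2/3 subunit genes, taken from this list after their values were seen, ran from 0.04 to 0.22. For 7 of them the NE libraries were both above the vehicle libraries, against 24.6% of all tested genes. Of the 9 genes 2 had an unadjusted p under 0.05 in edgeR, and 0 were called. With the length trend removed the median of all 22 nucleation genes was 0.16, against 0.03 over all tested genes. No such value is given for the 9 Arp2/3 genes alone. Of the 24 tested genes of filament dynamics 12 were above 0 and 12 below. Tmsb4x, which encodes the monomer-binding thymosin beta-4, stood at 0.19 ± 0.07 (adjusted p = 0.140). Ssh2, a phosphatase gene that acts on cofilin, was at -0.25 ± 0.09 (adjusted p = 0.165).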

How the data were processed

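Per the file headers, the authors deposited raw counts for each gene, not normalized. The submitters' processing notes name GRCm39 (mm39) as build. Libraries came from total RNA (RNeasy kit, NEBNext Ultra II kit, NovaSeq X sequencing), per the labels' protocols. Which aligner, counter, annotation and strand setting were used is not given in the sources used here. Columns were matched to samples by the library descriptions and grouped by title.

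Testing used edgeR 4.0.16 (R 4.3.3) after filterByExpr (minimum count 10, minimum total 15) and TMM scaling, with group as the model's term and Benjamini-Hochberg adjustment over 11419 genes. The SE of a log2 fold change is its size over the root of F. Alternatives used DESeq2 1.42.0, limma 3.58.1, other scalings and filters, the 20 most abundant genes left out, a replicate block, the length trend removed (spline offsets) and each library left out. Shares per length divide counts by the longest transcript in GENCODE M21 (GRCm38), which can differ from the transcript the cells use. A count of 0 allows 3 counts, for counting error only. The procedure was tested on simulated counts, with settings and outcome not reported here.

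The 40 genes, the further list of 104 and the markers were chosen with earlier results of these data known. All 40 genes are named, and of the further list the 4 with the smallest p in each group, or fewer, and Srf, Mrtfa and Mrtfb. Parvg is named outside this rule and was chosen after its values were seen.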

Additional observations from a re-analysis of the deposited data

How the results depend on the processing

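Parvb kept a positive log2 fold change in all 13 alternatives and its call in 8 of them. The number of the 40 genes called higher was 0 with total counts as scaling and 0 with DESeq2, and the number called lower was 1 with a replicate block, Flnc at -0.27 (adjusted p = 0.0483). The labels give both groups replicate numbers 1 and 2. Deviations of same-numbered libraries correlated at -0.056 across genes, so the numbers are not shown to pair the samples. With libraries left out in turn, 0 to 1 of the 40 genes were called higher and 0 to 3 lower, 0 to 5 of the further genes higher and 0 to 4 lower, and 2 to 312 of all genes higher and 2 to 428 lower, against 39 and 140 with all 4. Counts for all genes, higher and lower, were 84 and 225 with no low-count filter, 24 and 51 with DESeq2, 84 and 236 with the replicate block and 7 and 23 with the length trend removed. With total counts as scaling they were 12 and 120, so 9.09% of calls were higher, against 21.8% with TMM.

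Signs turned in several settings, none of them for a called gene. With the length trend removed log2 fold changes became 0.024 for Parva, 0.078 for Tln1, 0.048 for Tln2, 0.0083 for Tns3 and 0.020 for Actn1. They became 0.047 for Actn4, 0.031 for Flna, 0.0059 for Cfl1 and -0.033 for Pfn1. The median of all tested genes was 0.034 in that setting, and Parva, Tns3, Actn1, Flna and Cfl1 stayed below it. With total counts log2 fold changes became -0.0035 for Fermt2 and -0.010 for Myh10. With no filter they became 0.0050 for Actn4, 0.0042 for Tagln2 and 0.0013 for Cfl1. Actn4 was also at 2.80e-05 with DESeq2 size factors, 2.21e-05 with DESeq2, 8.94e-04 with limma voom, 9.54e-04 with the block and 1.44e-04 without the 20 most abundant genes. Over the settings that leave out 1 library, the ranges that cross 0 were -0.024 to 0.10 for Ilk, -0.025 to 0.15 for Lims1, -1.06 to 0.027 for Lims2, -0.11 to 0.049 for Parva, -0.11 to 0.058 for Tln1, -0.062 to 0.092 for Fermt2, -0.22 to 0.0062 for Vcl, -0.18 to 0.0046 for Tns3 and -0.057 to 0.12 for Ptk2. They were -0.062 to 0.14 for Src, -0.10 to 0.058 for Actn1, -0.053 to 0.056 for Actn4, -0.17 to 0.019 for Flna, -0.19 to 0.041 for Actb, -0.48 to 0.42 for Acta2, -0.067 to 0.064 for Tagln2, -0.51 to 0.034 for Cnn2, -0.0057 to 0.10 for Tpm1, -0.080 to 0.0099 for Tpm2, -0.049 to 0.068 for Myh10 and -0.084 to 0.082 for Cfl1. The lone library of a group is assumed in these settings to vary like the other group. Depth limits Lims2, with 10 and 25 counts in NE and 19 and 21 in vehicle, and Tagln, with 10 and 4 in NE and 7 and 5 in vehicle, which was not tested. For Acta2 the vehicle libraries had 107 and 57 counts. The cause of the turns was not tested.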
